A study of Mus musculus with 12 samples.

Results

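Immune checkpoint and evasion ligands are surface or secreted molecules by which a cell signals to the T cells, natural killer (NK) cells and macrophages that could attack it. The 9 mouse genes described here, Cd274, Pdcd1lg2, Cd276, Lgals9, Pvr, Nectin2, Cd47, Nt5e and Raet1e, were taken by symbol from the deposited table of expected counts, where each had 1 of 55492 rows. RNA-seq was made from CCN6KOT, a primary line grown from a spindle metaplastic breast tumour of a mouse. Its 12 libraries form 4 groups of 3, all from cells that were transduced with lentivirus and selected with puromycin. DNTCF4_EZH2 carries a dominant negative TCF4 construct together with a construct labelled EZH2, and DNTCF4_SET carries it together with a construct labelled SET, a name that the labels do not expand. DNTCF4 carries the dominant negative TCF4 construct, with the word Vector in its titles where the other groups name EZH2 or SET, and Vector carries the control lentivirus, with the term PPGS in its titles, which is not expanded either. The promoters of the constructs, their species and any cloning of cells are not given in the sources used here. No label states whether replicate libraries are separate cultures. The p-values below thus measure spread among libraries that may be technical alone.

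Most of the products are ligands of receptors on other cells, and CD73 is an enzyme. Cd274 encodes PD-L1 and Pdcd1lg2 encodes PD-L2, the ligands of the T cell inhibitory receptor PD-1, and PD-L1 is a classic target of interferon signalling. Cd276 encodes B7-H3, a relative of PD-L1 that is abundant in many carcinomas, and Lgals9 encodes galectin-9, a ligand of the T cell receptor TIM-3. Pvr (CD155) and Nectin2 (CD112) belong to the nectin family and bind both the inhibitory receptor TIGIT and the activating receptor CD226, as known mainly from human cells. Cd47 encodes the signal that restrains phagocytosis through SIRP-alpha on macrophages, Nt5e encodes CD73, the enzyme that forms immunosuppressive adenosine from AMP, and Raet1e encodes a ligand of NKG2D, the activating receptor of NK cells, and so marks a cell for killing. Of the proteins in the constructs, TCF4, the product of Tcf7l2, binds DNA together with beta-catenin when Wnt signalling is active, and EZH2 methylates histone H3 as part of Polycomb complex PRC2.

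The promoters of Cd274 and Lgals9 are printed because, among the members, only these held any of the 3 motifs searched. The RefSeq promoter table of build GRCm38.p6, with 250 bases before to 50 after each annotated start, matched 8 of the 9 members, all but Pvr, in 10 windows. The letters searched, on both strands, were the ISRE core, bound by interferon-regulated complexes that hold IRF9, GAAA and GAAA parted by any 2 bases, present in 3.44% of 32851 promoters, the TCF/LEF core CTTTGA, in 16%, and an NF-kappaB core, GGG and TTTCC parted by any 2 bases, in 1.63%. The Cd274 window (chr19:29367188-29367487, plus strand) held 1 TCF/LEF core on the reverse strand, whose first base lies 94 bases before the start, and the Lgals9 window (chr11:78984875-78985174, minus strand) held 2 ISRE cores on the reverse strand, whose first bases lie at -55 and 16 from the start. The matches are in capitals, 5′ to 3′, and they describe letters in the window, not bound sites.
Cd274: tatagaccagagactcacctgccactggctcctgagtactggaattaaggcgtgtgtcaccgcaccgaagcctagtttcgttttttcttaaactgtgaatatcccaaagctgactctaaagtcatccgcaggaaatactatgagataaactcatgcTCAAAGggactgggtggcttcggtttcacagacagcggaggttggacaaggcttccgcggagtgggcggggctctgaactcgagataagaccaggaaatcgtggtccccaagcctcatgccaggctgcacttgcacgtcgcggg
Lgals9: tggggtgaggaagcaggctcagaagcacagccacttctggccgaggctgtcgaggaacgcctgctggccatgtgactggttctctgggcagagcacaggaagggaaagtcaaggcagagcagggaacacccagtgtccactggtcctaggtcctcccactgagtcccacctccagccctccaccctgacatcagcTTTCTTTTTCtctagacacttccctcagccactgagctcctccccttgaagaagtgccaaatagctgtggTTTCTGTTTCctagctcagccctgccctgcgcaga

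Library totals ran from 23597545 to 33999982 counts, and the filter on low counts kept 15052 genes, 8 of the 9 members among them. Levels are given in CPM (counts relative to library size, after TMM scaling), and a count of 0 allows up to 0.088 to 0.126 CPM, from a limit of 3 counts that covers counting error only. Counts on Ezh2 averaged 450 ± 20.5 CPM in DNTCF4_EZH2, 546 ± 33.1 in DNTCF4_SET, 65.4 ± 3.1 in DNTCF4 and 57.9 ± 1.53 in Vector, and those on Tcf7l2 45.5 ± 1.77, 35.2 ± 2.68, 39.8 ± 2.41 and 11 ± 2.48 CPM in the same order (SD, n = 3 each). Ezh2 was thus 8.34-fold higher in DNTCF4_SET than in DNTCF4, so DNTCF4_SET, like DNTCF4_EZH2, was high in Ezh2. The labels do not say whether the SET construct holds Ezh2 sequence. In DNTCF4, replicate 1 differed from the rest of its group (chi-square over degrees of freedom 20.7 and 13.1, while the other pair had 3.33). Several member values are therefore also given without it. DNTCF4_EZH2 was uneven too, at 16.3 between replicates 1 and 2 and 6.33 and 6.09 in its other pairs. The mesenchymal markers Vim, Fn1 and Zeb1 and the keratin genes Krt8 and Krt18 were abundant, whereas Twist1 had 0 counts in all 12 libraries and Cdh1 averaged at most 1.01 CPM in a group. Of the immune markers, Cd3d and Klrk1 had 0 counts, Ptprc had 2 counts over the DNTCF4_EZH2 libraries, 5 over DNTCF4_SET, 0 over DNTCF4 and 31 over Vector, and Cd68, which is not restricted to myeloid cells, averaged 67.4, 62.1, 55.7 and 53.1 CPM. In such bulk libraries fewer cells that express a gene and less of its RNA per cell cannot be told apart.

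Scaled by the length of its merged exons, Cd47 was the most abundant member in the 3 groups with DNTCF4, and Raet1e was the scarcest of the 8 tested members in every group. Cd47 had 36.5 ± 1.18 CPM per kb in DNTCF4_EZH2, 39.7 ± 1.01 in DNTCF4_SET, 40.5 ± 3.06 in DNTCF4 and 36.3 ± 0.523 in Vector, and Nectin2 had 33 ± 1.02, 32.9 ± 1.01, 30.9 ± 3.5 and 36.3 ± 0.316 CPM per kb. Lgals9 had 23.6 ± 1.16 CPM per kb in DNTCF4_EZH2, 25.5 ± 0.843 in DNTCF4_SET, 32.5 ± 3.02 in DNTCF4 and 44.4 ± 1.22 in Vector, where it was the most abundant member. Cd276, Pvr and Nt5e lay between 10.2 and 20 CPM per kb in each group. The PD-L1 gene was far scarcer than these, at 1.11 to 1.8 CPM per kb, and Raet1e had 0.178 to 0.605. Across the groups the order of the genes differed mainly in the place of Lgals9.

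**Figure D1:**
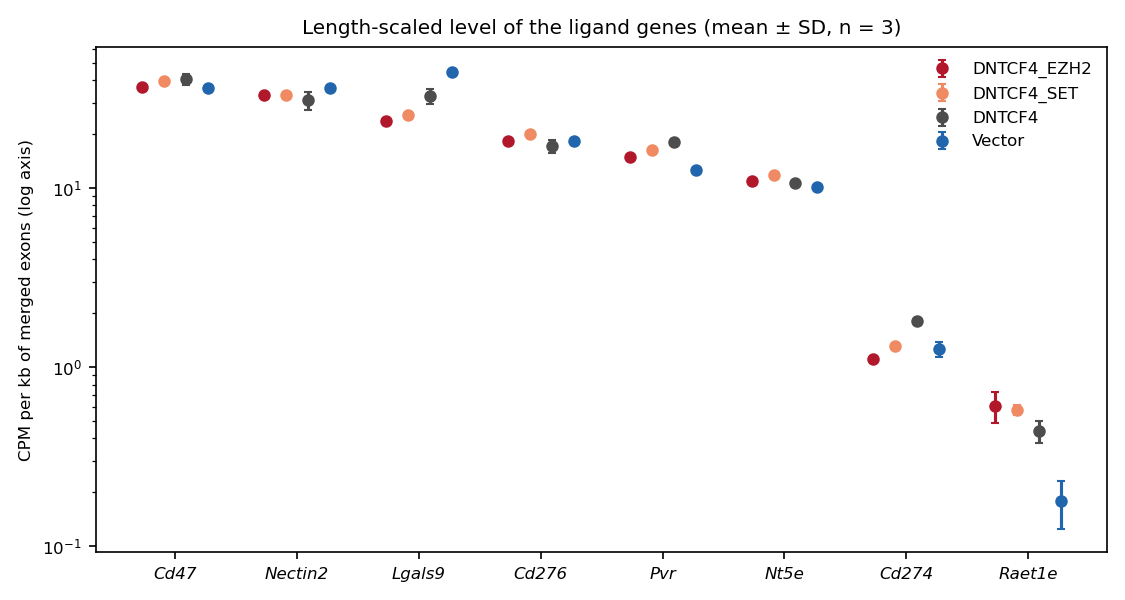
Level of the 8 tested ligand genes in CPM per kb of merged exons on a log axis, by gene, for DNTCF4_EZH2, DNTCF4_SET, DNTCF4 and Vector (points: mean of 3 libraries; bars: SD). Cd47, Nectin2 and Lgals9 lie at 23.6 to 44.4, Cd276, Pvr and Nt5e at 10.2 to 20, and Cd274 and Raet1e at or below 1.8 CPM per kb.

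Among the T cell checkpoint ligands, Cd274 was highest in DNTCF4. Cd274 (ENSMUSG00000016496, chromosome 19, 29367455 to 29388095, plus strand, GRCm38) had 4.16, 3.99 and 3.87 CPM in the DNTCF4_EZH2 libraries, 4.76, 4.85 and 4.73 in DNTCF4_SET, 6.79, 6.27 and 6.49 in DNTCF4, and 4.26, 4.36 and 5.03 in Vector. The 3 DNTCF4 libraries lay above all 9 others, DNTCF4_EZH2 held the lowest 3, and the DNTCF4_SET libraries fell within the range of Vector. In the order of its levels only the step between DNTCF4 and DNTCF4_SET passed the test (edgeR's quasi-likelihood test, Benjamini-Hochberg adjusted p = 0.00174), not those between DNTCF4_SET and Vector (adjusted p = 0.545) or between Vector and DNTCF4_EZH2 (adjusted p = 0.149). Pdcd1lg2, which starts 22824 bases from the end of Cd274 on the same strand, was close to silent. It had 2 counts over the 3 DNTCF4_EZH2 libraries, 0 over DNTCF4_SET, 1 over DNTCF4 and 1 over Vector, so no difference was detectable at this depth and it was not tested.

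The other T cell ligands of the set had separate patterns. Cd276 (chromosome 9, 58524298 to 58555437, minus strand) had 66.6, 69.2 and 66.8 CPM in DNTCF4_EZH2, 74.3, 75 and 70.5 in DNTCF4_SET, 57, 66.5 and 64.2 in DNTCF4, and 64.9, 69.3 and 66.1 in Vector. Its DNTCF4_SET libraries lay above all 9 others and the DNTCF4_EZH2 and Vector libraries overlapped, and no step between neighbours in the order of its levels passed the test. Lgals9 (chromosome 11, 78962974 to 78984946, minus strand) had 53.4, 48.9 and 49.3 CPM in DNTCF4_EZH2, 56.1, 55.2 and 52.6 in DNTCF4_SET, 62.2, 74.5 and 71.7 in DNTCF4, and 92.3, 97.5 and 95.5 in Vector. The galectin-9 gene thus lay lowest in the groups with EZH2 or SET, which overlapped, at an intermediate level in DNTCF4 and highest in Vector. The steps between DNTCF4_SET and DNTCF4 (adjusted p = 0.000616) and between DNTCF4 and Vector (adjusted p = 1.01e-05) passed edgeR's test, and that between DNTCF4_EZH2 and DNTCF4_SET did not (adjusted p = 0.35).

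The paired nectin genes, which lie 153095 bases apart on the minus strand of chromosome 7, had opposite orders. Pvr (19903578 to 19921160) had 91.7, 93.1 and 91 CPM in DNTCF4_EZH2, 97.8, 100 and 101 in DNTCF4_SET, 111, 110 and 110 in DNTCF4, and 76.2, 78.4 and 76.7 in Vector. Its 4 groups did not overlap, and DNTCF4 was highest and Vector lowest. The step between DNTCF4_EZH2 and DNTCF4_SET just missed the threshold (edgeR adjusted p = 0.0553), while those on either side passed. Nectin2 (19716644 to 19750483) had 111, 117 and 117 CPM in DNTCF4_EZH2, 118, 116 and 111 in DNTCF4_SET, 94.7, 119 and 110 in DNTCF4, and 126, 127 and 128 in Vector. Its Vector libraries lay above the 9 others, which overlapped across the 3 groups with DNTCF4, and the value of 94.7 CPM belongs to the DNTCF4 library that stood apart. No step between neighbours in its order passed the test.

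The macrophage, adenosine and NK ligands varied over different ranges. Cd47 (chromosome 16, 49800533 to 49915010, plus strand) had 237, 222 and 229 CPM in DNTCF4_EZH2, 244, 248 and 256 in DNTCF4_SET, 276, 238 and 249 in DNTCF4, and 224, 230 and 229 in Vector. Its highest value was again that of DNTCF4 replicate 1, and DNTCF4_EZH2 overlapped Vector. Nt5e (chromosome 9, 88327197 to 88372092, plus strand) had 91.5, 92.4 and 97.1 CPM in DNTCF4_EZH2, 100, 102 and 101 in DNTCF4_SET, 96.2, 89.5 and 91.1 in DNTCF4, and 88.1, 88.6 and 87.6 in Vector. The CD73 gene was highest in all 3 DNTCF4_SET libraries and lowest in all 3 Vector libraries, within a span of 87.6 to 102 CPM. For neither gene did a step between neighbours in the order of levels pass the test.

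Among the tested members Raet1e, the NKG2D ligand gene, had the widest relative range at the lowest counts. Raet1e (chromosome 10, 22158569 to 22374139, plus strand) had 49, 45 and 30 counts in DNTCF4_EZH2, 33, 33 and 44 in DNTCF4_SET, 21, 31 and 29 in DNTCF4, and 8, 14 and 8 in Vector. Each library with DNTCF4 lay above each Vector library, and the gene passed the filter on low counts through the groups with DNTCF4. Its annotated span also holds the related NKG2D ligand genes Raet1d and H60b on the same strand, and reads of such related genes may have been split among them, so its own level is uncertain. Summed over the 3 genes the level was 3.05 ± 0.772 CPM in DNTCF4_EZH2, 3.05 ± 0.327 in DNTCF4_SET, 2.5 ± 0.146 in DNTCF4 and 0.894 ± 0.0679 in Vector (SD, n = 3 each), and the summed values of Vector stayed below those of the other groups. For Cd274, Cd276, Pvr, Nectin2 and Raet1e, genes annotated on the opposite strand had few counts beside the member, with a highest total of 187 over the 12 libraries for Gm16184 against 32744 for Pvr. Beside Pdcd1lg2, with 4 counts over the 12 libraries, the opposite-strand gene A930007I19Rik had 26. The sources used here do not say if counting took strand into account.

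**Figure D2:**
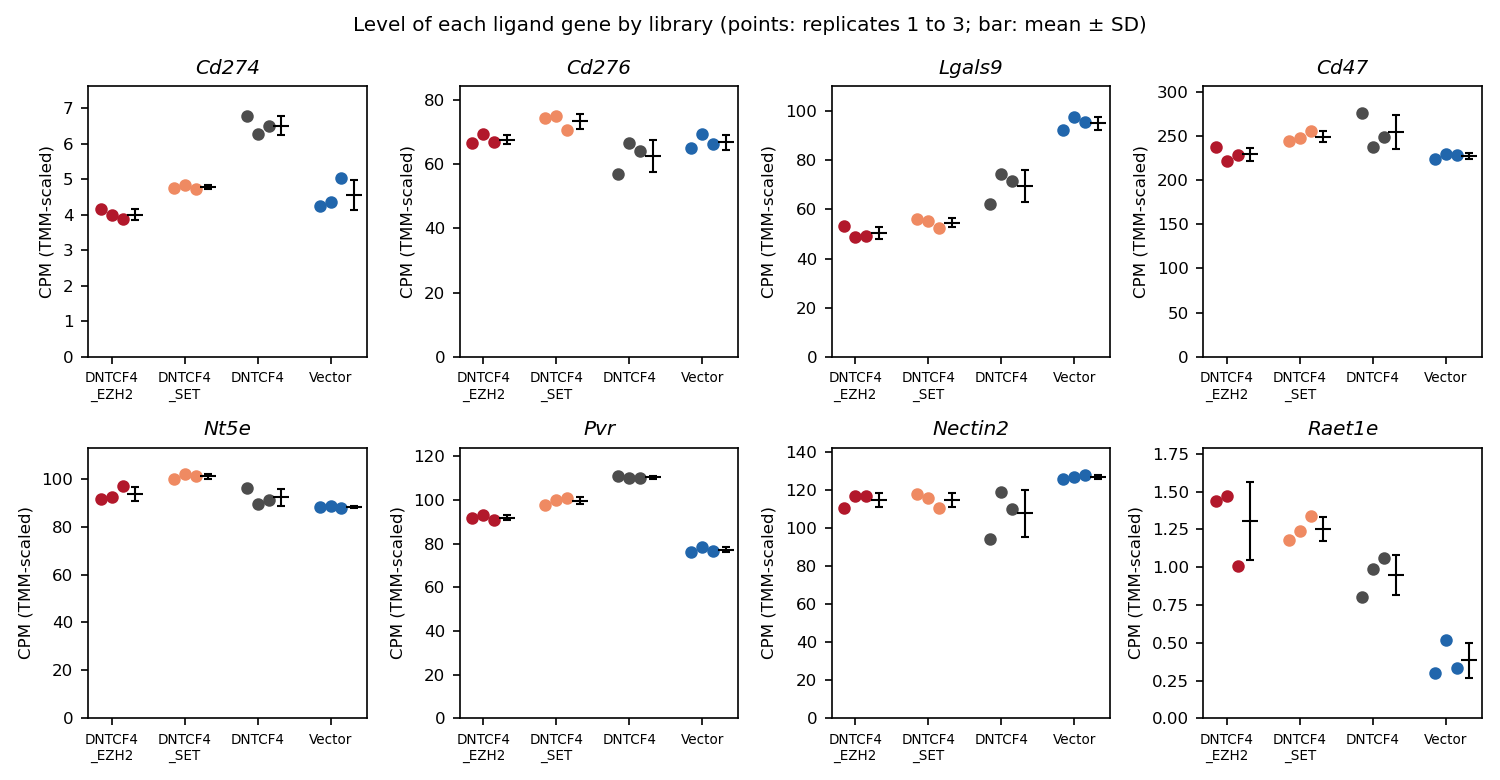
CPM of each tested ligand gene in every library, by group from left to right DNTCF4_EZH2, DNTCF4_SET, DNTCF4 and Vector (points: replicates 1 to 3; bars: mean ± SD; each axis starts at 0). Pvr separates the 4 groups with DNTCF4 highest at 110 ± 0.43 CPM, Lgals9 is highest in Vector at 95.1 ± 2.62, and Cd274 is highest in DNTCF4 at 6.52 ± 0.257.

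DNTCF4 was compared with Vector to see which members differ between cells with the dominant negative TCF4 construct and cells with the control lentivirus. From these labels the effect of the construct cannot be told apart from other differences between the cells of the groups. No label states whether replicate libraries are separate cultures either. Cd274, Pvr, Cd47 and Raet1e rose, and Lgals9 and Nectin2 fell, so that the nectin family genes Pvr and Nectin2 moved in opposite directions. These are 6 of the 8 tested members, 4 higher and 2 lower, where 57.5% of all tested genes passed, 29.5% higher and 28% lower, so that calls were common in the whole table. Raet1e passed the filter on low counts through the groups with DNTCF4, so its call against Vector is not independent of that filter. The higher genes made up 51.3% of all calls, and 41% of those that limma made on the deposited rlog values. The median log2 fold change was 0.12 over the members and 0.01 over all tested genes.

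Cd274 averaged 6.52 ± 0.257 CPM in DNTCF4 and 4.55 ± 0.419 in Vector, a 1.43-fold rise (log2 0.52, SE 0.09, edgeR adjusted p = 0.000156). Pvr rose as much with a smaller spread, at 110 ± 0.43 CPM in DNTCF4 against 77.1 ± 1.13 in Vector (log2 0.52, SE 0.034, adjusted p = 4.27e-09). Raet1e had the largest change of the set, 0.95 ± 0.135 against 0.385 ± 0.116 CPM (log2 1.29, SE 0.28, adjusted p = 0.00112), and the sum with Raet1d and H60b gave 1.48 (adjusted p = 2.44e-05). It rests on 8, 14 and 8 counts in the Vector libraries, and on a filter passed through the groups where it is high. The fall of Lgals9 was 1.37-fold, at 69.5 ± 6.46 CPM in DNTCF4 and 95.1 ± 2.62 in Vector (log2 -0.45, SE 0.059, adjusted p = 1.01e-05). Without DNTCF4 replicate 1 the log2 fold change of Lgals9 was -0.38 (adjusted p = 2.19e-07) and that of Raet1e 1.39 (adjusted p = 0.000993). The rise of Cd47 was small, at a log2 of 0.16 (SE 0.047, adjusted p = 0.00969), and without DNTCF4 replicate 1 it was 0.09 (adjusted p = 0.0212). The log2 fold change of Nectin2 was -0.23 (SE 0.061, adjusted p = 0.00435), and -0.15 without the same library (adjusted p = 0.00236). Cd276 lay at a log2 difference of -0.09 (95% interval -0.21 to 0.02, adjusted p = 0.155), which shrank to -0.03 without DNTCF4 replicate 1 (adjusted p = 0.51) and passed at -0.15 without DNTCF4 replicate 2 (adjusted p = 0.0334). Nt5e lay at 0.07 (interval -0.02 to 0.15, adjusted p = 0.157), and at 0.03 without DNTCF4 replicate 1 (adjusted p = 0.453).

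**Figure D3:**
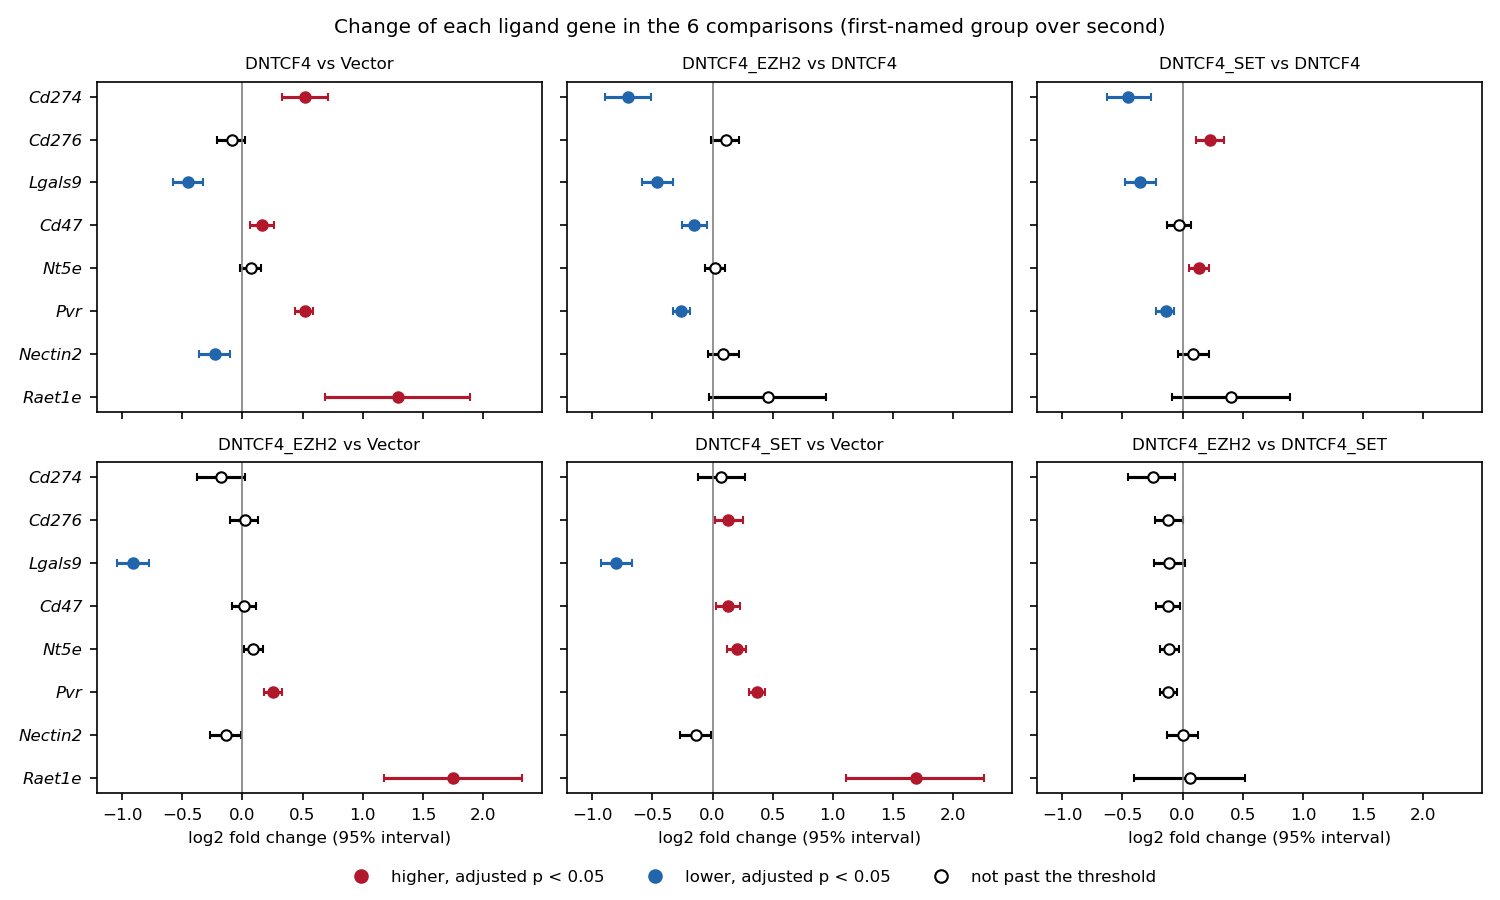
Log2 fold change of each tested ligand gene in the 6 comparisons, first-named group over the second (points: edgeR estimate; bars: 95% interval; filled: adjusted p under 0.05). Cd274 and Pvr lie at 0.52 in DNTCF4 over Vector and below 0 in both DNTCF4_EZH2 and DNTCF4_SET over DNTCF4, Lgals9 lies below 0 in all 3, and no point is filled in DNTCF4_EZH2 over DNTCF4_SET.

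Relatives of the ligands also moved both ways in DNTCF4 against Vector, where 29.5% of all tested genes rose and 28% fell. Of the other B7 and butyrophilin genes, 3 of 10 were tested: Icosl, which encodes the co-stimulatory ligand of ICOS, rose to 3.27 ± 0.171 CPM in DNTCF4, against 0.578 ± 0.226 in Vector (log2 2.52, adjusted p = 9.69e-08), and Vsir, which encodes the inhibitory molecule VISTA, fell to 12.9 ± 0.515 CPM, against 25.2 ± 2.25 (log2 -0.97, adjusted p = 2.73e-08). Among 5 tested nectin and CADM genes 1 rose and 2 fell: Nectin3, a binding partner of the other nectins, had 5.41 ± 0.988 CPM in DNTCF4, against 0.541 ± 0.0457 in Vector (log2 3.3, adjusted p = 2.13e-09), and Cadm1, the ligand of CRTAM, had 76.4 ± 1.74 CPM in DNTCF4, against 180 ± 2.77 in Vector (log2 -1.24, adjusted p = 1.54e-13). Of 5 tested galectin genes and binding partners 3 fell with Lgals9: Lgals1 by 0.8, Lgals3 by 0.55 and Lgals3bp by 0.93 on the log2 scale, while Lgals4 rose by 0.86 (adjusted p of at most 0.000563). Of the other NKG2D ligands, 2 of 4 in the table were tested, and Raet1d rose (log2 1.58, adjusted p = 0.000307) but is a near copy of Raet1e.

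Several partners of CD73 and CD47 also changed. In the adenosine pathway 4 of 15 tested genes rose and 6 fell, with calls for 57.5% of all tested genes. The rises included 3 adenosine receptors, Adora1 at 14 ± 1.4 CPM in DNTCF4 against 2.27 ± 0.236 in Vector, Adora2a at 2.16 ± 0.371 against 0.18 ± 0.0111, and Adora2b at 2.32 ± 0.105 against 1.16 ± 0.507 (adjusted p of at most 0.00355). Like Raet1e, Adora2a passed the filter on low counts through the groups with DNTCF4, where it is high. Alpl, the alkaline phosphatase that can also form adenosine, fell by 1.12 on the log2 scale (adjusted p = 4.88e-06). Of 10 genes tied to CD47, 4 rose and 4 fell: Thbs1 and Thbs2, whose thrombospondin products include a ligand of CD47, fell by 1.37 and 2.13 on the log2 scale (adjusted p of at most 1.56e-11). Sirpa, which encodes the receptor of CD47, rose to 96.6 ± 7.44 CPM in DNTCF4, against 35.9 ± 1.56 in Vector (log2 1.43, adjusted p = 1.5e-11), in libraries with few counts on leukocyte markers. The 4 T cell markers summed to 0 to 0.0733 CPM in the DNTCF4 libraries and 0.113 to 0.518 in Vector, with Cd3d at 0, and the 6 myeloid markers to 45 to 65.9 and 53.5 to 56.8 CPM, nearly all of it Cd68. The 6 mesenchymal markers summed to 4540 to 5080 CPM in DNTCF4 and 10400 to 11300 in Vector, and the part of these differences in the values of the ligands was not tested. Among 34 regulators of PD-L1, 17 rose and 7 fell, where 29.5% of all tested genes rose and 28% fell, and nothing particular to the list is read from its count. Nfkbia, a target and inhibitor of NF-kappaB, rose by a log2 of 1.08, and Hif1a, the hypoxia factor, by 0.89. Cmtm4, whose product is known from human cells to stabilise PD-L1, had 173 ± 14.9 CPM in DNTCF4, against 108 ± 3.21 in Vector (log2 0.68, adjusted p = 2.9e-08).

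The comparison of DNTCF4_EZH2 with DNTCF4 asks which genes differ between cells with and without the construct labelled EZH2. The effect of that construct likewise cannot be told apart from other differences between the cells of the groups. Cd274, Lgals9, Pvr and Cd47 fell and no member rose, which is 4 of the 8 tested members, where 25.5% of all tested genes passed, 13% higher and 12.5% lower. This comparison shares the 3 DNTCF4 libraries with the comparison above. Cd274 fell 1.62-fold, at 4.01 ± 0.146 CPM in DNTCF4_EZH2 and 6.52 ± 0.257 in DNTCF4 (log2 -0.7, SE 0.089, edgeR adjusted p = 4e-05). Lgals9 fell 1.37-fold, at 50.6 ± 2.48 against 69.5 ± 6.46 CPM (log2 -0.46, SE 0.06, adjusted p = 5.14e-05), and Pvr 1.2-fold, at 91.9 ± 1.08 against 110 ± 0.43 CPM (log2 -0.26, SE 0.033, adjusted p = 3.59e-05). The change of Lgals9 was -0.53 without DNTCF4 replicate 1 (adjusted p = 1.41e-08). Lgals9 was thus lower in DNTCF4_EZH2 than in DNTCF4, where it was itself below Vector, whereas Cd274 and Pvr were above Vector in DNTCF4.

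The fall of Cd47 was small, with a log2 fold change of -0.15 (SE 0.047, adjusted p = 0.0298). Its call did not hold without DNTCF4_EZH2 replicate 2 (log2 -0.13, adjusted p = 0.118) or replicate 3 (-0.15, adjusted p = 0.0786), or with only the 6 libraries compared (-0.15, adjusted p = 0.105), and the change was -0.09 without DNTCF4 replicate 1 (adjusted p = 0.0489). For the members that did not pass the intervals were narrow except for Raet1e. The log2 difference was 0.11 for Cd276 (95% interval -0.01 to 0.22), 0.02 for Nt5e (-0.06 to 0.1) and 0.09 for Nectin2 (-0.04 to 0.22), against 0.46 for Raet1e (-0.03 to 0.94). Without DNTCF4 replicate 1 these shrank to 0.04 for Cd276 (adjusted p = 0.47), 0.01 for Nectin2 (adjusted p = 0.943) and 0.35 for Raet1e (adjusted p = 0.359), and Nt5e lay at 0.05 (adjusted p = 0.3). Without DNTCF4 replicate 2, Cd276 passed at 0.16 (adjusted p = 0.0469) and Nectin2 at 0.17 (adjusted p = 0.0358). That brings the count to 6, where 4035 of 15639 tested genes passed.

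DNTCF4_SET differed from DNTCF4 in 5 of the 8 tested members, 2 higher and 3 lower, where 26% of all tested genes passed, 12.7% higher and 13.3% lower. Cd274, Lgals9 and Pvr fell, and Cd276 and Nt5e rose. The 3 DNTCF4 libraries also serve the comparison of DNTCF4_EZH2 with DNTCF4, so falls seen in both are not independent of each other. Cd274 averaged 4.78 ± 0.0626 CPM in DNTCF4_SET and 6.52 ± 0.257 in DNTCF4 (log2 -0.45, SE 0.088, edgeR adjusted p = 0.00174). Lgals9 averaged 54.6 ± 1.8 against 69.5 ± 6.46 CPM (log2 -0.35, SE 0.06, adjusted p = 0.000616), and Pvr 99.7 ± 1.72 against 110 ± 0.43 CPM (log2 -0.14, SE 0.033, adjusted p = 0.00473, and 0.0537 when only the 6 libraries compared were fitted). The change of Lgals9 was -0.43 without DNTCF4 replicate 1 (adjusted p = 4.06e-07). Cd276 rose to 73.2 ± 2.42 CPM in DNTCF4_SET, against 62.6 ± 5 in DNTCF4 (log2 0.23, SE 0.053, adjusted p = 0.00594), and at 0.16 without DNTCF4 replicate 1 (adjusted p = 0.00599). The rise of Nt5e was 0.14 on the log2 scale (SE 0.038, adjusted p = 0.0173), a call that did not hold without DNTCF4 replicate 2 (0.11, adjusted p = 0.0593) or 3 (0.13, adjusted p = 0.0516) or DNTCF4_SET replicate 2 (0.13, adjusted p = 0.069) or 3 (0.13, adjusted p = 0.0525), with only the 6 libraries (0.14, adjusted p = 0.0642) or with no filter on low counts (0.13, adjusted p = 0.0632). The members that did not pass were Cd47 at -0.03 (95% interval -0.13 to 0.07), Nectin2 at 0.09 (-0.04 to 0.22) and Raet1e at 0.4 (-0.09 to 0.89). Without DNTCF4 replicate 1, Cd47 lay at 0.03 (adjusted p = 0.523), Nectin2 at 0 (adjusted p = 0.977) and Raet1e at 0.29 (adjusted p = 0.452). Nectin2 passed at 0.16 without DNTCF4 replicate 2 (adjusted p = 0.0459).

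Around the ligands, the interferon-response gene Irf9 was lower and the ATP-degrading enzyme genes Entpd1 and Enpp1 higher in both groups than in DNTCF4. Of the 34 PD-L1 regulators, 3 rose and 6 fell in DNTCF4_EZH2, and 5 rose and 5 fell in DNTCF4_SET, close to the shares over all tested genes of 25.5% and 26%. Irf9, whose product binds the ISRE, averaged 20.8 ± 0.961 CPM in DNTCF4_EZH2, 28.9 ± 1.51 in DNTCF4_SET and 47 ± 4 in DNTCF4 (log2 -1.17 and -0.7, adjusted p of at most 1.27e-06). The letters of that element are those printed in capitals in the Lgals9 promoter, but a link between Irf9 and Lgals9 was not tested. In Vector Irf9 averaged 52 ± 1.53 CPM, and its difference between DNTCF4 and Vector did not pass. In the adenosine pathway 4 of 15 tested genes rose and 0 fell in DNTCF4_EZH2, and 6 rose and 1 fell in DNTCF4_SET. Entpd1, encoding CD39, which precedes CD73 in the breakdown of ATP, averaged 2.36 ± 0.212, 2.61 ± 0.0653 and 1.52 ± 0.143 CPM in DNTCF4_EZH2, DNTCF4_SET and DNTCF4 (adjusted p = 0.00425 and 0.00103). Enpp1, another enzyme that yields AMP, averaged 67.2 ± 1.82, 64 ± 2.21 and 51 ± 3.86 CPM (adjusted p = 6.08e-05 and 0.000366). Entpd1 averaged 2.24 ± 0.2 CPM in Vector, and Enpp1 51.5 ± 2.11 CPM. Of the 5 tested galectin genes and partners, 1 rose and 2 fell in DNTCF4_EZH2 and 3 fell in DNTCF4_SET, with Lgals3bp at -0.71 and -0.38 on the log2 scale (adjusted p = 4.69e-06 and 0.00141). Of the 7 tested receptor genes 2 rose and 2 fell in DNTCF4_EZH2, among them Havcr2, which encodes TIM-3, the receptor of galectin-9, at 4.79 ± 0.207 CPM in DNTCF4_EZH2 and 7.02 ± 0.647 in DNTCF4 (log2 -0.55, adjusted p = 0.000549), and none passed in DNTCF4_SET.

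**Figure D4:**
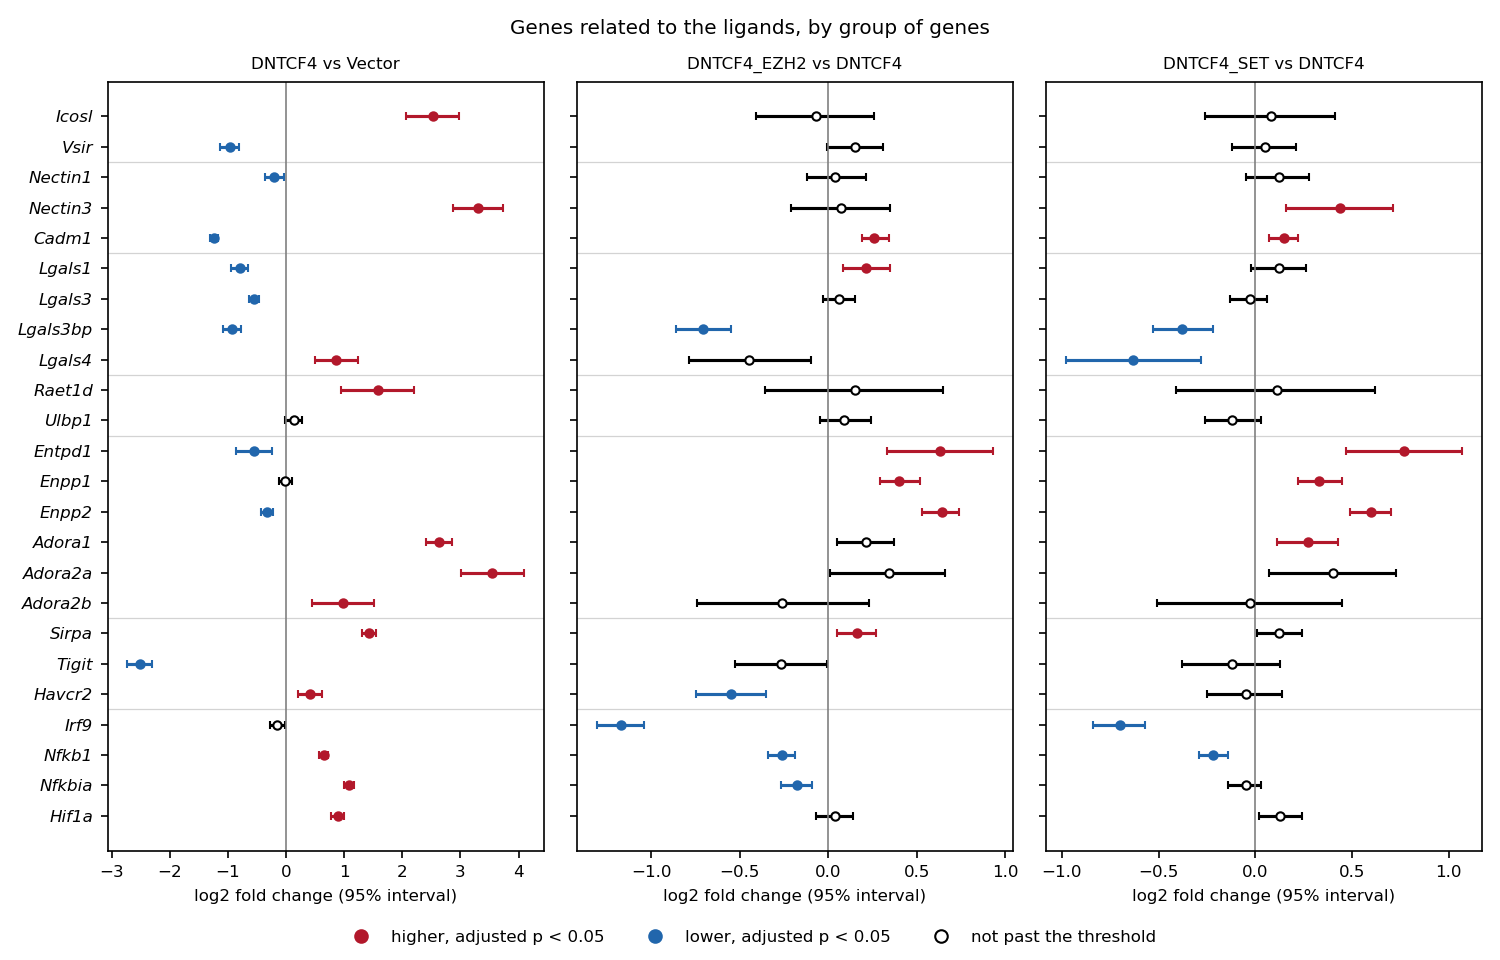
Log2 fold change of genes related to the ligands in DNTCF4 over Vector, DNTCF4_EZH2 over DNTCF4 and DNTCF4_SET over DNTCF4 (points: edgeR estimate; bars: 95% interval; filled: adjusted p under 0.05; grey lines part B7 genes, nectins and CADM1, galectins, NKG2D ligands, the adenosine pathway, receptors and PD-L1 regulators; the scale differs between panels). Irf9 lies at -0.15, which did not pass, -1.17 and -0.7, and Adora2a at 3.55 in DNTCF4 over Vector.

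Between DNTCF4_EZH2 and DNTCF4_SET the log2 differences of the ligands were at most 0.25 in size. None of the 8 tested members passed edgeR's test, where 5.16% of all tested genes did, 3% higher and 2.17% lower. With so small a share, nothing particular to the members is read from that count. Of the 8, 6 lay below 0 and 5 had an unadjusted p under 0.05 in edgeR's test. Their median log2 fold change was -0.11, against 0 over all tested genes. Cd274 differed by a log2 of -0.25 (95% interval -0.45 to -0.06), Cd276 by -0.12 (-0.23 to 0), Cd47 by -0.12 (-0.22 to -0.02), Nt5e by -0.11 (-0.19 to -0.03) and Pvr by -0.12 (-0.19 to -0.05). DESeq2 called 2 members, Nt5e and Pvr, where it called 914 of 31352 genes, a total counted before its own filter on low counts. On the rlog values limma called 0 members and 643 of 21754 genes. With only the 6 libraries edgeR called 4 members, Cd276, Cd47, Nt5e and Pvr, where it called 2177 of 14475 genes. Lgals9 differed by -0.11 (-0.24 to 0.02), Nectin2 by 0 (-0.13 to 0.13) and Raet1e by 0.06 (-0.4 to 0.52). The higher genes made up 58% of all edgeR calls, 44.9% of those of DESeq2 and 47.9% of those of limma. Among related genes, Cd200, the ligand of an inhibitory myeloid receptor, was lower in DNTCF4_EZH2, at 16.2 ± 0.937 CPM against 22 ± 0.985 in DNTCF4_SET (log2 -0.44, adjusted p = 0.00214), and so was Irf9 (log2 -0.47, adjusted p = 0.000764).

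Set against Vector, both groups with a second construct had lower Lgals9 and higher Pvr and Raet1e. DNTCF4_EZH2 differed from Vector in 3 of the 8 tested members, 2 higher and 1 lower, where 57.7% of all tested genes passed, 28.7% higher and 29% lower. DNTCF4_SET differed in 6, 5 higher and 1 lower, where 58% passed, 28.1% higher and 29.9% lower. Lgals9 had its largest changes here, at 50.6 ± 2.48 CPM in DNTCF4_EZH2 and 95.1 ± 2.62 in Vector, a 1.88-fold fall (log2 -0.91, SE 0.06, edgeR adjusted p = 4.52e-09), and 1.74-fold lower in DNTCF4_SET (log2 -0.8, SE 0.06, adjusted p = 1.98e-08). Raet1e was 3.36-fold higher in DNTCF4_EZH2 (log2 1.75, SE 0.27, adjusted p = 4.83e-05) and 3.22-fold higher in DNTCF4_SET (log2 1.69, SE 0.27, adjusted p = 7.6e-05). Both calls concern a gene that passed the filter on low counts through the groups with DNTCF4, where it is high. Pvr stood above Vector by a log2 of 0.25 in DNTCF4_EZH2 (SE 0.034, adjusted p = 1.18e-05) and 0.37 in DNTCF4_SET (SE 0.034, adjusted p = 1.84e-07).

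Cd274 did not pass against Vector in either group, at -0.18 in DNTCF4_EZH2 (95% interval -0.38 to 0.02) and 0.07 in DNTCF4_SET (-0.12 to 0.27). Nt5e rose in DNTCF4_SET (log2 0.2, SE 0.039, adjusted p = 0.000365), and in DNTCF4_EZH2 it lay at 0.09 (adjusted p = 0.0624), which passed at 0.12 without DNTCF4_EZH2 replicate 1 (adjusted p = 0.0289) and at 0.09 with only the 6 libraries compared (adjusted p = 0.0226). Cd276 rose in DNTCF4_SET by a log2 of 0.13 (adjusted p = 0.0443), a call lost without Vector replicate 1 (0.13, adjusted p = 0.106) or 3 (0.13, adjusted p = 0.111) or DNTCF4_SET replicate 1 (0.14, adjusted p = 0.0837) or 2 (0.11, adjusted p = 0.163), or when scaled by library totals only (0.11, adjusted p = 0.0882). Cd47 rose in DNTCF4_SET by 0.13 (adjusted p = 0.0273), a call lost without Vector replicate 3 (0.13, adjusted p = 0.0533) or DNTCF4_SET replicate 2 (0.13, adjusted p = 0.0648) or 3 (0.1, adjusted p = 0.118), or with library totals only (0.11, adjusted p = 0.0525). In DNTCF4_EZH2, Cd276 lay at 0.02 (-0.1 to 0.13) and Cd47 at 0.01 (-0.09 to 0.11). Nectin2 lay at -0.14 in both groups (-0.27 to -0.01) and missed the threshold (adjusted p = 0.0621 in DNTCF4_EZH2 and 0.0548 in DNTCF4_SET). It passed in DNTCF4_EZH2 and DNTCF4_SET with only the 6 libraries compared (adjusted p = 0.000555 and 0.0014), with no filter (0.0239 and 0.0123) and with library totals only (0.0439 and 0.0343).

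Across the 12 libraries the members did not vary as 1 block. As a description over points that share 4 groups and their depth, Pearson's r of log2 CPM was 0.73 between Pvr and Cd47, 0.7 between Cd274 and Cd47 and 0.66 between Cd274 and Pvr, and -0.76 between Pvr and Nectin2, -0.85 between Cd47 and Nectin2 and -0.88 between Lgals9 and Raet1e. Among 11706 genes, those most like Pvr were Ccny (r = 0.992), Ccnf (0.988) and Denr (0.987), and those most like Lgals9 were Shisa5 (0.99), Lgals3bp (0.987) and Oasl1 (0.985). Like Lgals9, Oasl1 was lowest in DNTCF4_EZH2 and highest in Vector, at 39, 44.7, 81.7 and 128 CPM in DNTCF4_EZH2, DNTCF4_SET, DNTCF4 and Vector. The genes most like Cd274 were Rwdd4a (0.964), Manf (0.96) and Sdad1 (0.952), and Manf had 156, 179, 231 and 166 CPM in the same order. For Cd276 they were Hspa1b (0.944), Hspa1a (0.927), which are near copies of each other, and Ptp4a3 (0.911). For Cd47 they were Wapl (0.962), Zdhhc20 (0.951) and Trim33 (0.95), for Nt5e Arhgap29 (0.946), Osbpl8 (0.929) and Fam114a1 (0.927), and for Nectin2 Vat1 (0.973), Tmem109 (0.97) and Tle5 (0.97).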

How the data were processed

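Total RNA of 12 libraries was sequenced. Sample titles gave the groups and the replicate numbers. The authors deposited a table of expected counts per gene (estimated counts, not normalised), already whole numbers, and DESeq2 rlog values (regularised log2 counts). Per the submitters' processing notes the tools were STAR 2.7.8a, RSEM 1.3.3, DESeq2, cutadapt 2.3 and FastQC 0.11.8, on GRCm38, with no settings given in the sources used here. Because RSEM divides ambiguous reads between near copies, their levels depend on its model.

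Genes were kept with filterByExpr (minimum count 10, minimum total 15). In R 4.3.3, edgeR 4.0.16 was used with TMM scaling, 1 model of the 12 libraries with a mean per group, the two-sided quasi-likelihood test and Benjamini-Hochberg adjustment over 15052 genes with a threshold of 0.05 (8 residual degrees of freedom, biological coefficient of variation 5.17%). It was tested on simulated counts. All 12 pairs of replicates differed beyond sampling noise (chi-square over degrees of freedom 2.59 to 20.7), so none was merged. Levels per kb use merged exons of GENCODE for GRCm38, matched by Ensembl identifier.

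The members, 10 lists of related genes and the tests were chosen with earlier results of these data known. Of each list, up to 4 genes a comparison were eligible to be named, those with the largest called change, no overlap between groups and at least 1 CPM on average in the higher one. For each member with a mean of at least 1 CPM the 3 most correlated genes over 12 libraries (log2 CPM, prior count 2) are named. Alternatives were DESeq2 1.42.0 size factors or its Wald test, limma 3.58.1 on the rlog values, no filter, only the 6 libraries compared, a block by replicate number and each library left out. Scaling by library totals and the sum of Raet1e, Raet1d and H60b were chosen after seeing the data. 1 gene of the list of PD-L1 regulators is not reported here.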

Additional observations from a re-analysis of the deposited data

How the results depend on the processing

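The calls of Cd274, Pvr, Lgals9 and Raet1e in DNTCF4 against Vector, and of Cd274 and Lgals9 in both comparisons with DNTCF4, kept their direction and passed under every alternative run. With only the 6 libraries compared, 2532 of 14295 genes and 3 members passed in DNTCF4_SET against DNTCF4 (3914 of 15052 and 5 with all 12). In DNTCF4_EZH2 against DNTCF4_SET 2177 of 14475 genes and 4 members passed (777 and 0 with all 12). In DNTCF4_EZH2 against Vector 9517 of 14594 genes and 5 members did (8688 and 3 with all 12). For DNTCF4_EZH2 against DNTCF4_SET, 1 member and 768 of 15052 genes passed with DESeq2 size factors. With the DESeq2 Wald test 2 members and 914 of 31352 genes passed there, a total counted before DESeq2's own filter on low counts. With each of the 6 libraries left out 359 to 439 genes passed there. The cause of these shifts was not tested. Nectin2 turned to -0.01 in DNTCF4_EZH2 against DNTCF4_SET with DESeq2 size factors, the DESeq2 Wald test or limma on the rlog values, and Cd47 to -0.01 in DNTCF4_EZH2 against Vector with library totals only; no such value passed a test. With libraries left out, the changes that turned sign, in 1 case to 0 after rounding, ran from -0.01 to 0.05 for Nt5e in DNTCF4_EZH2 against DNTCF4, from -0.07 to 0.03 for Cd47 and 0 to 0.16 for Nectin2 in DNTCF4_SET against DNTCF4, from -0.02 to 0.03 for Nectin2 and -0.03 to 0.21 for Raet1e in DNTCF4_EZH2 against DNTCF4_SET, and from -0.01 to 0.05 for Cd276 in DNTCF4_EZH2 against Vector. Scaling moved the median of all genes by at most 0.025 in size.

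The groups share replicate numbers, but no label says that these pair libraries. Same-numbered libraries deviated from their group means with r from -0.17 to 0.15, over 0.1 in 1 of 18 pairs, and 6 of 18 correlated best with their own number. With the replicate number as a block, edgeR added 1 call of a member, Nectin2 in DNTCF4_SET against Vector (log2 -0.14, adjusted p = 0.0479). The block changed no other call of a member.

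Depth limits Pdcd1lg2, with at most 2 counts in a library, and Raet1e, with at most 49, most.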

Other observations

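Other ligands and enzymes that restrain immune cells also differed between DNTCF4 and Vector. Of 21 tested genes of that kind 6 rose and 10 fell, where 29.5% of all tested genes rose and 28% fell. Arg2, the mitochondrial arginase, averaged 10.5 ± 0.662 CPM in DNTCF4 and 1.48 ± 0.197 in Vector (log2 2.83, edgeR adjusted p = 1.12e-11), and Cd200, the ligand of an inhibitory receptor of myeloid cells, 19.3 ± 1.49 and 6.88 ± 0.564 CPM (log2 1.49, adjusted p = 5.73e-10). Fgl2, a secreted fibrinogen-like protein that restrains T cells, averaged 0.462 ± 0.0496 CPM in DNTCF4 and 3.65 ± 0.487 in Vector (log2 -2.98, adjusted p = 1.91e-08). Fgl1 averaged 0.122 ± 0.0926 CPM in DNTCF4, near the limit for a count of 0, and 2.32 ± 0.613 in Vector. In DNTCF4_EZH2 and DNTCF4_SET, Tgfb2, which encodes transforming growth factor beta 2, averaged 17.6 ± 0.235 and 19.9 ± 0.47 CPM, against 13.5 ± 0.823 in DNTCF4 (log2 0.38 and 0.56, adjusted p = 0.000364 and 1.26e-05). Its level in Vector was 18.2 ± 1.1 CPM. Serpinb9, an inhibitor of granzyme B, averaged 30.1 ± 0.75 and 31.1 ± 1.59 CPM in DNTCF4_EZH2 and DNTCF4_SET, against 37.7 ± 4.26 in DNTCF4 (adjusted p = 0.00208 and 0.00677). Its level in Vector was 80.2 ± 1.28 CPM.

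Of the 17 receptors of these ligands in the table, 7 were tested. Tigit, which encodes the receptor of Pvr and Nectin2 on T and NK cells, averaged 2.6 ± 0.0828 CPM in DNTCF4_EZH2, 2.87 ± 0.276 in DNTCF4_SET, 3.11 ± 0.494 in DNTCF4 and 18 ± 0.604 in Vector (DNTCF4 against Vector log2 -2.52, adjusted p = 1.02e-11). Beside it, the 4 T cell markers summed to at most 0.205, 0.263, 0.0733 and 0.518 CPM in a library of these groups and the 3 NK cell markers to at most 0, 0.0304, 0.0367 and 0.0377, with Cd3d and Klrk1 at 0 counts in all 12 libraries.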
